A study of Mus musculus with 19 samples.

Results

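Cyp2b9, Cyp2b10 and Cyp2b13, the cytochrome P450 genes of the Cyp2b family with reads in the liver, were described together with Nr1i3, which encodes the constitutive androstane receptor CAR, and Por, which encodes the cytochrome P450 reductase. These 5 of the 24054 genes in the deposited table were chosen by symbol, with the comparison of knockout and control livers already known, so their differences between groups are given as a description, with no p-values. Liver RNA came from Raly flox/flox mice on a C57BL/6 background, fed chow, in which adeno-associated virus had delivered either AAV8.TBG.Cre (L-RalyKO, 3 mice) or AAV8.TBG.GFP (control, 3 mice). The TBG promoter is active in hepatocytes, so Cre was directed to these cells. Which liver cells kept the floxed allele was not measured here. Controls carried the same floxed alleles and received virus, although their labels read wild type. By the methods, mice were killed weeks after the virus was injected. The study calls the mice of its liver qPCR fasting and does not say so of the RNA-seq livers. The age of the mice was not given, the methods name male mice unless otherwise specified, and the methods describe the controls as littermates without saying which mice shared a litter. The labels number the replicates and say no more of them, so their spread may be partly technical.

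CAR is a nuclear receptor that is held in the cytoplasm of hepatocytes by a chaperone complex and enters the nucleus after exposure to phenobarbital-like compounds. There it pairs with the retinoid X receptor and binds direct repeats of a hexamer that are 4 bases apart, called DR4 elements, near genes of drug metabolism, of which Cyp2b10 is the usual example in mice. Cyp2b9 and Cyp2b13 are better known as genes with higher expression in female than in male mouse liver, a pattern set by growth hormone. POR passes electrons from NADPH to all microsomal P450 enzymes, whatever receptor controls their genes.

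In GENCODE vM1 on the mouse build NCBIM37 (mm9), Cyp2b9, Cyp2b10 and Cyp2b13 lie on chromosome 7, all on the + strand. Cyp2b10 (ENSMUSG00000030483.8) lies at chr7:26682639-26711643, Cyp2b13 (ENSMUSG00000040583.6) at chr7:26846514-26881215 and Cyp2b9 (ENSMUSG00000040660.6) at chr7:26958430-26995680, and the longest transcript of each has 9 exons. Nr1i3 (ENSMUSG00000005677.7) lies at chr1:173144101-173150832 and Por (ENSMUSG00000005514.8) at chr5:136145903-136211196, both on the + strand. In coding sequence Cyp2b9 was 92.5% identical to Cyp2b13 and 87.7% to Cyp2b10, and Cyp2b10 was 88.8% identical to Cyp2b13. Just upstream of the gene start Cyp2b9 and Cyp2b13 were again the most alike. The windows of 250 bases before the RefSeq start, taken from RefSeq on GRCm38.p6 and found at a single place each in NCBIM37, were 99.2% identical between Cyp2b9 and Cyp2b13, against 75.8% between either of them and Cyp2b10. They are shown to set this near-identity beside the levels below, where Cyp2b9 and Cyp2b13 were low in the knockouts. Whether the sequence and the levels are linked was not tested. Capitals mark the 2 positions at which Cyp2b9 and Cyp2b13 differ (T48C and C104T from Cyp2b9 to Cyp2b13, counted from 1 at the 5′ end of the window), and the Cyp2b10 window is printed up to the annotated gene start, with no capitals.
Cyp2b9, chr7:26958178-26958427, + strand: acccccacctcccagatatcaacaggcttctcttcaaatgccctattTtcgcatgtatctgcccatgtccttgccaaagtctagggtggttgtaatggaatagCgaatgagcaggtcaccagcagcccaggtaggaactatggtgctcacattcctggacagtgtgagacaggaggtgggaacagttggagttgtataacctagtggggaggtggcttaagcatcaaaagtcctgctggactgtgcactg
Cyp2b13, chr7:26846264-26846513, + strand: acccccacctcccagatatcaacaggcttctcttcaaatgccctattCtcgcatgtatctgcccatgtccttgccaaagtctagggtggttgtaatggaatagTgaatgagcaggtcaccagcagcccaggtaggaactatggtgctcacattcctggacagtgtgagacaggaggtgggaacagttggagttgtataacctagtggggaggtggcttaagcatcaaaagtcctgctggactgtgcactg
Cyp2b10, chr7:26682427-26682638, + strand: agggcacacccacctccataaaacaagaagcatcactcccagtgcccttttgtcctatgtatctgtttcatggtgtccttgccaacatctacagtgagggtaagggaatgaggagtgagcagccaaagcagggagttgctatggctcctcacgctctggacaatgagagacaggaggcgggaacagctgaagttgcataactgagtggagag

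None of the 5 promoter windows of 250 bases held any of 4 motifs searched on both strands. These were the NFY box (CCAAT), which 34.5% of 27025 RefSeq promoter windows hold, the STAT motif (TTC and GAA with 3 bases between them, 7.18%), the forkhead motif (TGTTTAC, 3.09%) and the DR4 element (0.551%). A DR4 element was defined as hexamers in one direction with 4 bases between them, one being AGGTCA or AGTTCA and the other differing from either at 1 base at most. The RefSeq start of Por lies 19112 bases inside the gene as annotated in GENCODE, and that of Cyp2b10 lies 38 bases inside it. In the 3000 bases before each RefSeq start, a single DR4 element was found over the 5 genes (7.77% of 4606 regions of that length, before the annotated starts of protein-coding genes of GENCODE vM1 on the 3 chromosomes concerned, hold one). It lay upstream of Cyp2b10, at −2336 to −2321 from the RefSeq start, and its hexamers were read from the opposite strand. The best local match to this stretch upstream of Cyp2b9 and of Cyp2b13 lay much nearer to the start, beginning at −869 and −857, and was 75.0% and 76.3% identical over 76 aligned bases. In both, the 16 bases aligned to the element differed from it at the same 2 positions, T1A and C14T, counted from 1 at the 5′ end of the + strand, and no longer met the definition. The stretches are shown with the hexamers, or the bases aligned to them, in capitals.
Cyp2b10, chr7:26680311-26680386, + strand: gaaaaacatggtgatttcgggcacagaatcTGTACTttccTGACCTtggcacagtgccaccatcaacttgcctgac
Cyp2b9, chr7:26957559-26957635, + strand: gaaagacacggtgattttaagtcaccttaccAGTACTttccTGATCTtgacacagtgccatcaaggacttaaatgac
Cyp2b13, chr7:26845657-26845733, + strand: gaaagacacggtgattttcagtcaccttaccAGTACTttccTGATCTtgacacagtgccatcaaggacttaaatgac
The other motifs did occur in the 3000 bases. There were 14 NFY boxes before Cyp2b9, 3 before Cyp2b10, 8 before Cyp2b13, 10 before Nr1i3 and 3 before Por, where 98.4% of the regions hold at least 1. STAT motifs numbered 1 before Cyp2b10 and 3 before Nr1i3 (63.7% of regions hold one), and Cyp2b9, Cyp2b13 and Nr1i3 each had 1 forkhead motif (33.1%). A match describes letters only, and nothing was measured here about binding at these places.

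The deposited values are CPM on effective library sizes (reads of a gene scaled to a library of common size), not divided by gene length. Reads recovered from them numbered 34660211 to 38052705 in L-RalyKO and 28302983 to 37132274 in control libraries, and 3 reads of a gene correspond to a value of 0.0789 to 0.105. Raly, the targeted gene, was at 6.34, 6.61 and 7.39 in L-RalyKO and at 50.1, 48.6 and 46.8 in control livers, which follows the labels. The female-specific transcript Xist stayed between 0.0351 and 0.378 in the 6 mice, while the Y-linked Ddx3y averaged 84.9 ± 1.24 in L-RalyKO and 82.2 ± 8.005 in control mice (SD, n = 3). Of the other Y-linked genes, Eif2s3y was lower in L-RalyKO (40.0 ± 1.38 against 46.8 ± 0.464, adjusted p = 0.0359, limma), and Kdm5d (15.7 ± 0.504 against 16.95 ± 0.906) and Uty (13.99 ± 0.740 against 15.2 ± 1.46) did not pass. Of the 6 hepatocyte markers, Hnf4a was higher and 5 did not pass in limma (edgeR and limma voom called 2 markers and DESeq2 3), and their summed level was 92011 to 93160 in L-RalyKO and 81887 to 91240.4 in control livers. No gene passed in limma among the tested markers of Kupffer cells (6; summed level 133 to 170.4 against 127 to 189), endothelial cells (5; 134 to 170.2 against 151 to 161), stellate cells (5; 197 to 249.9 against 213 to 228), cholangiocytes (3 of 5; 32.2 to 41.0 against 32.5 to 34.7) or lymphoid cells (1 of 5; 6.15 to 8.58 against 7.60 to 9.57), and no marker was at 0 in all mice. At an unadjusted p under 0.05 in limma 1 cholangiocyte marker (higher) was found among these 5 lists of other cell types. Of all 11580 tested genes, 2632 passed that threshold. In the 5 lists DESeq2 called 1 cholangiocyte marker and edgeR and limma voom called 0. The cholangiocyte sum is mostly Spp1 (mean of 27.5 in L-RalyKO and 28.3 in control livers, overlapping). Sox9 (4.95 against 3.11) and Krt19 (0.754 against 0.396, below the level for testing) were higher without overlap. Krt7 and Epcam had higher means in L-RalyKO with overlap. In bulk liver, fewer cells of a type and less RNA per cell cannot be told apart.

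Cyp2b9, whose enzyme hydroxylates steroids, was almost lost from L-RalyKO livers. Its values were 0.873, 2.15 and 3.18 in the L-RalyKO mice and 65.2, 48.9 and 36.3 in the controls. Every control mouse was far above every L-RalyKO mouse, and the highest knockout value came from the third mouse. The means were 2.07 ± 1.16 and 50.1 ± 14.5 (SD, n = 3), 24.2-fold lower in L-RalyKO, and they rest on 225 reads over the knockout mice and 4924 over the controls. On the log2(value + 1) scale the difference was −4.10 (SE 0.29, 95% interval −4.76 to −3.44), the second lowest of the 11580 genes tested (rank 2 from the lowest), where the median gene was at 0.0044.

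Cyp2b13, the closest relative of Cyp2b9, was scarce in control livers and nearly undetected in L-RalyKO livers. It had 71, 36 and 110 reads in the control mice (values of 2.12, 1.26 and 2.97) and 0, 1 and 2 reads in the L-RalyKO mice (0, 0.0290 and 0.0526). The groups did not overlap, and no knockout mouse had more than 3 reads. Summed over mice and scaled for depth, the controls had 78.0 times the level of the knockouts, with a counting interval of 26.3 to 381 at the 95% level that covers counting error only. Resting on so few knockout reads, this ratio was 151 without the third L-RalyKO mouse and between 52.9 and 91.4 when any other mouse was left out. The fitted difference of −1.56 (SE 0.19, interval −2.01 to −1.12) is on the log2(value + 1) scale, which understates changes of genes this low, and Cyp2b13 passed the mean of 1 needed for testing through the controls alone.

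Cyp2b10, the family member that CAR activators induce, behaved otherwise. It was at 10.0, 25.2 and 16.7 in L-RalyKO and at 33.1, 15.7 and 22.7 in control livers. The groups overlapped, and the second L-RalyKO mouse exceeded 2 of the 3 controls. The means of 17.3 ± 7.59 and 23.8 ± 8.79 (SD, n = 3) differed by −0.47 on the log2(value + 1) scale (SE 0.32, interval −1.21 to 0.27). Without the first L-RalyKO mouse the difference was −0.15, and without the second −0.77. The other Cyp2b genes of the table, Cyp2b19 and Cyp2b23, had 0 reads in all 6 mice.

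**Figure D1:**
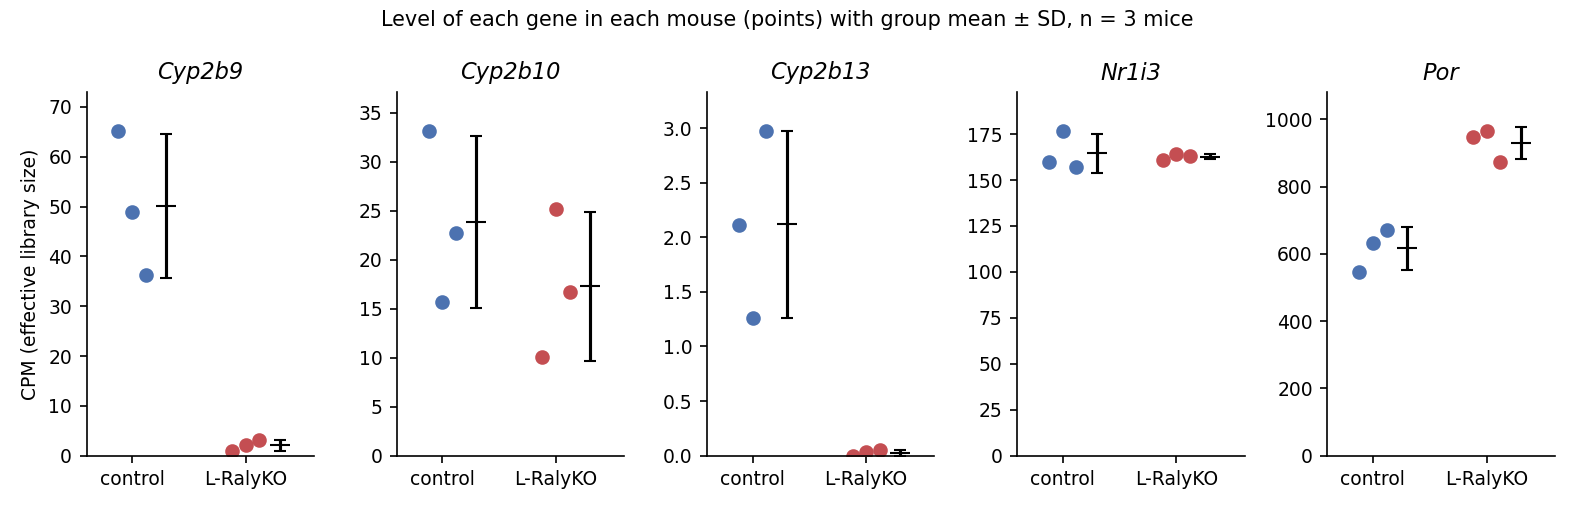
Values of Cyp2b9, Cyp2b10, Cyp2b13, Nr1i3 and Por in each mouse, in CPM on linear axes that start at 0. Points are mice, bars the group mean ± SD (n = 3). The groups stand apart for Cyp2b9 and Cyp2b13 (control higher) and for Por (L-RalyKO higher) and overlap for Cyp2b10 and Nr1i3.

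Nr1i3, the gene of the CAR receptor itself, was at 161, 164 and 163 in L-RalyKO and at 160, 177 and 157 in control livers. The knockout values lay inside the range of the controls. The difference was −0.01 on the log2(value + 1) scale (SE 0.055, interval −0.14 to 0.11), and it became 0.04 without the second control mouse.

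Por, the electron donor of the microsomal P450 enzymes, was the member with higher levels in the knockouts. Its values were 948, 966 and 874 in L-RalyKO and 546, 631 and 672 in control livers. The lowest L-RalyKO mouse was above the highest control. The means of 929 ± 48.5 and 616 ± 64.2 (SD, n = 3) differed 1.51-fold, or by 0.60 on the log2(value + 1) scale (SE 0.081, interval 0.41 to 0.78).

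By the call rule used for all genes (limma, adjusted p under 0.05), 1 of the 5 genes was called higher (Por), where 3.36% of all 11580 tested genes were, and 2 were called lower (Cyp2b9 and Cyp2b13), where 3.19% were. The same genes were those whose groups did not overlap, as was so for 14.4% of tested genes on the higher and 13.7% on the lower side. Cyp2b13 was tested only because of its control levels, and since the 5 genes were picked with this contrast in view, nothing is read from these counts.

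Levels of different genes were compared per kb of merged exon. In control livers the order was Por (153 ± 15.98 CPM per kb), Nr1i3 (37.3 ± 2.42), Cyp2b9 (26.7 ± 7.72), Cyp2b10 (11.3 ± 4.16) and Cyp2b13 (1.13 ± 0.456; SD, n = 3), and the ranges over mice of neighbours in this order did not overlap. Nearest to each other were Nr1i3, whose lowest control was at 35.6, and Cyp2b9, whose highest was at 34.7. Nr1i3 has 4414 bases of merged exon and 2980 in its longest transcript, so this nearness depends on the length used. In L-RalyKO livers Cyp2b9 (1.10 ± 0.617) fell below Cyp2b10 (8.19 ± 3.595), again without overlap between neighbours, and Por (231 ± 12.1), Nr1i3 (36.9 ± 0.324) and Cyp2b13 (0.0145 ± 0.0141) kept their places. Of the summed Cyp2b level per kb, Cyp2b9 made up 61.1 to 76.3% in control mice and 8.75 to 17.7% in L-RalyKO mice, while Cyp2b10 made up 21.7 to 33.9% and 82.1 to 91.1%. The sum itself was 31.7 to 51.6 in controls and 5.22 to 13.1 in L-RalyKO. Reads of these genes can be shared out between relatives by the counting. Words of 50 bases in protein-coding transcripts were searched for in those of other genes. The share found there was 10.8% for Cyp2b9, 7.58% for Cyp2b10, 19.0% for Cyp2b13 and 0 for Nr1i3 and Por. Transcripts that do not code for protein were not searched. Nr1i3 had 1461 such words and Cyp2b9 1827, although the merged exons of Nr1i3 are the longer (4414 bases against 1876).

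**Figure D2:**
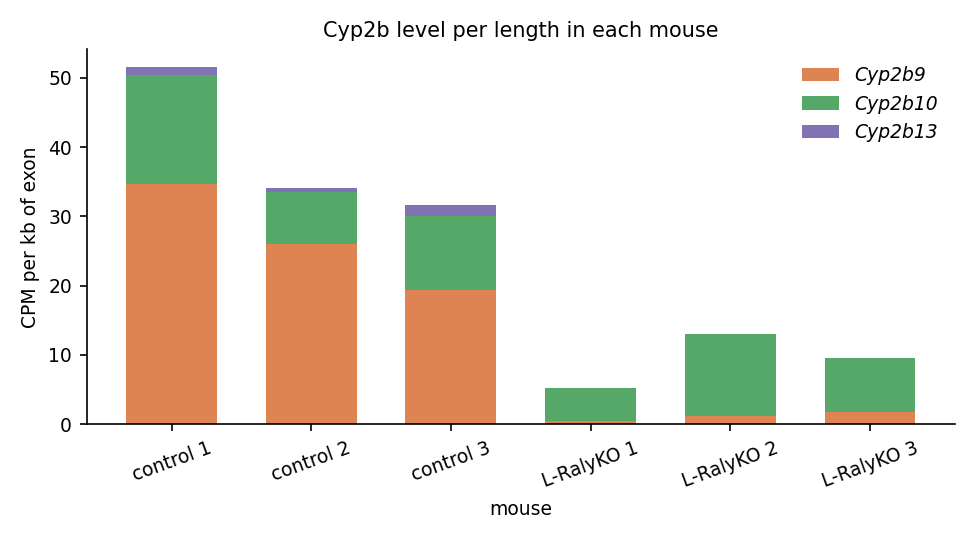
Level of Cyp2b9, Cyp2b10 and Cyp2b13 per kb of merged exon, stacked for each mouse (horizontal axis), in CPM per kb. Control bars reach 31.7 to 51.6 and consist mostly of Cyp2b9, and L-RalyKO bars reach 5.22 to 13.1 and consist mostly of Cyp2b10.

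The genes around the Cyp2b genes on chromosome 7 were looked at next, a set chosen by position after values had been seen. Between the outermost Cyp2b genes, Cyp2a4 was the only other gene tested (−0.42 on the log2(value + 1) scale, SE 0.17, adjusted p = 0.198, limma). With means of 0.781 in L-RalyKO and 1.36 in control livers, Cyp2a4 passed the mean of 1 needed for testing through the controls alone. Including 500 kb on either side, 22 other genes were tested and 1 passed, on the lower side, where 3.19% of all tested genes did. With 1 gene of 22, nothing is read from this count. The gene was Cyp2a22, a P450 with female-predominant expression, which fell from 14.5 ± 2.03 to 7.19 ± 0.117 (SD, n = 3; log2 difference −0.91, SE 0.095, adjusted p = 0.00174, limma). Cyp2a5, which hydroxylates coumarin, lay at 0.52 (SE 0.16, adjusted p = 0.0974) and did not pass.

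**Figure D3:**
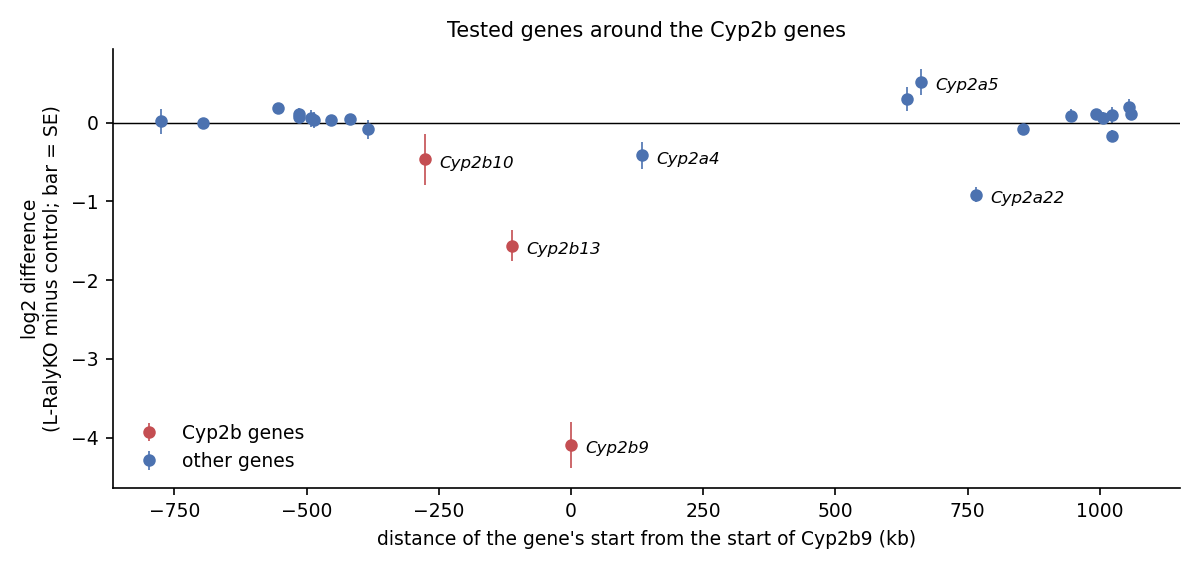
Log2 difference (L-RalyKO minus control, on the log2(value + 1) scale, bars SE) of tested genes within 500 kb of the Cyp2b genes, by distance in kb of each gene's start from that of Cyp2b9. Cyp2b9 at −4.10 and Cyp2b13 at −1.56 are the lowest points, and genes outside the Cyp2 families lie near 0.

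Genes that CAR and the related receptor PXR are known to control were counted from a list without the 5 genes above. Of the 33 genes found, 29 were tested, 4 were higher and 2 lower in L-RalyKO (limma, adjusted p over all genes, where 3.36% of all tested genes were higher and 3.19% lower), and the median difference was 0.13 against 0.0044 over all tested genes. Gstm3, a glutathione transferase, rose from 38.7 ± 3.72 to 88.8 ± 18.5 (SD, n = 3; log2 difference 1.16, SE 0.14, adjusted p = 0.00312). Cyp1a2, which metabolises caffeine (0.48, adjusted p = 0.0441), Cyp2c55 (0.42, 0.0365) and Papss2, which makes the sulfate donor of sulfotransferases (0.31, 0.0194), were also higher, and Cyp1a2 had an adjusted p of 0.0742 in edgeR's test. Cyp2c37 (−0.34, adjusted p = 0.0410) and Gstt1 (−0.29, 0.0290) were lower. The classical targets Cyp3a11, of PXR, and Cyp2c29, of CAR, were at −0.19 (SE 0.13, adjusted p = 0.458) and −0.15 (SE 0.085, 0.346) with overlapping groups. In limma 11 of the 29 were higher and 6 lower at an unadjusted p under 0.05, which 2632 of all 11580 tested genes passed. The count of 6 genes called at an adjusted p under 0.05 dropped to 1 without the first L-RalyKO mouse and to 2 without the first control.

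Of 20 partners and regulators of CAR, 2 were higher (3.36% of all tested genes were), 0 lower, and the median was 0.03. At an unadjusted p under 0.05 in limma 4 were higher and 1 lower, where 2632 of all 11580 tested genes passed. Nr1i2, which encodes PXR, was at 116, 119 and 119 in L-RalyKO and at 97.2, 89.6 and 94.9 in control livers (log2 difference 0.33, SE 0.048, adjusted p = 0.00725, limma). Hnf4a, a hepatocyte transcription factor, had values of 899.6, 809 and 829 against 520.3, 542 and 680.5 (0.55, SE 0.099, adjusted p = 0.0155). The groups stood apart in both. Rxra, the pairing partner of CAR, was at 0.12 (SE 0.057, adjusted p = 0.247). The count was 1 without the first L-RalyKO mouse, the first control or the second control.

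Among 8 other genes of P450 electron transfer, 1 was higher and 1 lower (3.36% and 3.19% of all tested genes), with a median of 0.04. Fdx1, the ferredoxin that serves mitochondrial P450 enzymes, was higher (71.5 ± 2.23 against 56.6 ± 3.73, SD, n = 3; log2 difference 0.33, adjusted p = 0.0148, limma). Pgrmc2, a haem-binding membrane protein, was lower (61.4 ± 5.04 against 78.7 ± 3.11; −0.36, adjusted p = 0.0185). Cyb5, cytochrome b5, which can pass an electron to microsomal P450 enzymes, was at 0.00 (SE 0.052, adjusted p = 0.990). The count of 2 became 1 without the first or the second L-RalyKO mouse or the first control. No gene passed among 5 other enzymes that take electrons from POR (Hmox1, Hmox2, Sqle, Cyp51 and Dhcr7; median 0.07), 5 genes of NADPH supply (median −0.01) or 8 genes of haem synthesis (median −0.03). At an unadjusted p under 0.05 in limma these held 0, 1 (lower) and 1 (higher) gene, where 2632 of all 11580 tested genes passed. In each of these lists edgeR, DESeq2 and limma voom called 0. Alas1, the first enzyme of haem synthesis and a CAR target, was at 0.45 (SE 0.24, adjusted p = 0.309).

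Cyp2b9 and Cyp2b13 are female-predominant, so other genes with a known sex difference in mouse liver were counted. Of 19 female-predominant genes only 7 were tested in these livers, 0 were higher, 2 were lower (3.19% of all tested genes were) and the median was −0.42. That median is the value of Cyp2a4, which passed the mean of 1 needed for testing through the controls alone. At an unadjusted p under 0.05 in limma 1 of the 7 was higher and 4 were lower, Cyp2a4 among the lower. Of all 11580 tested genes, 2632 passed that threshold. From all 19 genes of this list, not only these 7, edgeR and DESeq2 called 3 and limma voom 2. Those of edgeR included Hao2 (adjusted p = 0.00525 in edgeR's test), which reached its filter through the controls alone. Besides Cyp2a22, the peroxisomal transporter gene Abcd2 was lower (10.9 ± 1.69 against 16.04 ± 2.17, SD, n = 3; log2 difference −0.52, adjusted p = 0.0475, limma). Of those that did not pass, Cyp2c40 (9.57 ± 1.88 against 6.22 ± 2.52) and Fmo2 (25.1 ± 3.19 against 19.6 ± 6.88) had higher means in L-RalyKO. Of the 12 below the level for testing in limma, 6 had a higher and 4 a lower mean in L-RalyKO and 2 were at 0 in all mice, and the widest gap was that of Hao2. Hao2, a hydroxyacid oxidase, had 0.0291, 0.0290 and 0.0526 in L-RalyKO and 1.01, 0.631 and 0.324 in control livers. Of 22 male-predominant genes 21 were tested, 7 were higher (3.36% of all tested genes were) and 0 lower, with a median of 0.44. At an unadjusted p under 0.05 in limma 12 were higher and 2 lower, where 2632 of all 11580 tested genes passed. Selenbp2, a selenium-binding protein, rose from 117 ± 35.9 to 409.8 ± 75.0 (SD, n = 3; 1.83, SE 0.20, adjusted p = 0.00216), and Gstp1, a glutathione transferase (0.71, adjusted p = 0.00196), and Ugt2b1, a glucuronosyltransferase (0.60, 0.00254), rose as well. Bcl6, a transcriptional repressor, went the other way without passing (8.99, 12.6 and 10.2 in L-RalyKO against 59.3, 48.2 and 13.9; −1.62, SE 0.44, adjusted p = 0.0654). The list holds Mup7, Mup20 and Mup21, and other genes of that family outside it, Mup13, Mup16 and Mup19, were lower (below). The count of 0 lower thus covers the listed genes only, not the Mup family. The male-predominant count was 4 without the third L-RalyKO mouse, and the female-predominant count was 1 without any one of the L-RalyKO mice. These lists were written with the results for Cyp2b9 known, and their direction is not independent of them.

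**Figure D4:**
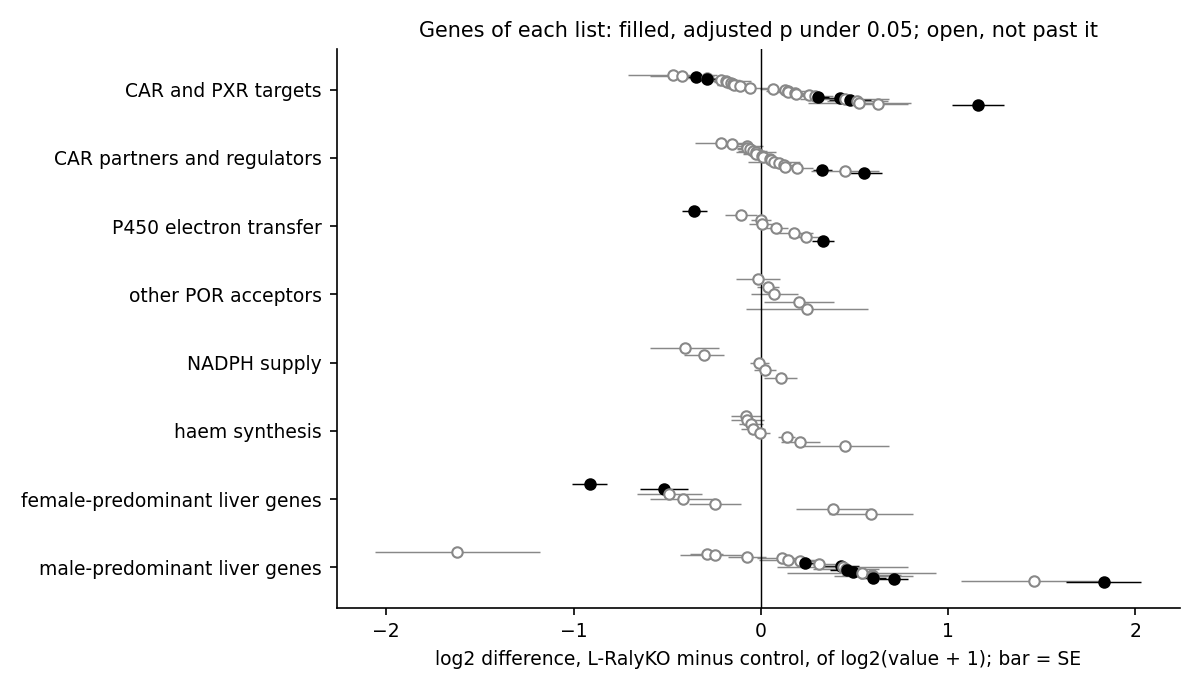
Log2 difference (L-RalyKO minus control, on the log2(value + 1) scale) of each tested gene of 8 lists, with SE bars. Filled points passed an adjusted p of 0.05 (limma) and open points did not, and 7 male-predominant genes lie filled above 0 while 2 female-predominant genes lie filled below it.

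Genes with the most similar pattern over the 6 mice were found by the root mean square difference between centred log2(value + 1) profiles, as a description. For Cyp2b9, whose own profile had a root mean square of 2.09, they were Mup16 (0.663), a major urinary protein gene that fell from 27.3 ± 9.97 to 0.121 ± 0.00887 (SD, n = 3), Raly itself (0.797), Cfd (1.16), 2610305D13Rik (1.25) and Mup19 (1.25), which fell from 8417 ± 1414 to 2494 ± 1219.7. For Cyp2b13 (0.817) they were Gm13251 (0.153), Mup13 (0.238; 12.4 ± 1.98 in control and 4.15 ± 1.027 in L-RalyKO livers), Inhbb (0.260), Tpm2 (0.290) and Serpinb1a (0.295), and for Cyp2b10 (0.523) Sulf2 (0.242), Serpina7 (0.266), Krt23 (0.266), Fam19a5 (0.269) and Gm19619 (0.281). The measure follows the size of the changes as well as their shape, so these lists cannot be compared between genes of different amplitude. Por (0.314) was followed closely by Nnmt (0.0424) and Pitpnm2 (0.0591), and Nr1i3 (0.0538) by Zfp606 (0.0135), Sugp2 (0.0142) and Rps23 (0.0178), genes that also hardly varied. All these points come from the same 6 libraries, and Mup genes share much of their sequence, so that their reads may have been divided between copies.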

How the data were processed

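Libraries were stranded and, by the study's methods, aligned with TopHat to mm9 and quantified as FPKM. The deposited values are another unit, a normalized signal that the authors made by dividing reads per gene by effective library size (CPM with TMM scaling). Whole reads were recovered for 100% of values (tolerance 0.01), 6838 of 24054 rows having none. Columns were matched to mice by virus and number, and the 13 ATAC-seq and ChIP-seq samples of 19 were not analysed here. The study's text gives more mice per group than the 3 used. Groups were compared with limma 3.58.1 (R 4.3.3, intensity trend) on log2(value + 1) for 11580 genes with a mean of at least 1, with Benjamini-Hochberg adjustment over all of them. The fits were tested on simulated data. Members and lists were chosen with earlier results of these data known. Named were the members, up to 3 called rises and falls per list, Nr1i2, Rxra, Cyp3a11, Cyp2c29, Cyb5, Alas1, Raly and the nearest patterns, 1 of which is left out here. Cyp2a4, Cyp2a5, Cyp2c40, Fmo2, Hao2, Bcl6, Papss2, Mup7, Mup20, Mup21, the other POR acceptors, the cholangiocyte markers and the sex-linked genes beside Eif2s3y are not covered by this rule and were picked after their values were seen. Alternatives were edgeR 4.0.16, DESeq2 1.42.0, limma voom, total count scaling, another pseudocount, other filters, a replicate block and leaving out each mouse.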

Additional observations from a re-analysis of the deposited data

How the results depend on the processing

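Cyp2b9 (−4.71 to −3.78 on the log2 scale over 14 alternatives), Cyp2b10 (−0.77 to −0.15), Cyp2b13 (−6.25 to −1.55 over 11) and Por (0.51 to 0.66) kept their sign, while Nr1i3 ranged from −0.05 to 0.04. Cyp2b9 was at −4.71 in limma voom and −4.66 with a pseudocount of 0.1. Cyp2b13 was at −6.08 in edgeR, −6.25 in DESeq2, −5.91 in limma voom and −4.07 with the pseudocount of 0.1. It fell below the level for testing without the first or the third control and with a mean of at least 5. The number of genes called, 758 (389 higher, 369 lower), was 837 in edgeR, 1060 in DESeq2, 484 without a filter and 335 to 812 when a mouse was left out, lowest without the first L-RalyKO mouse (335) and the first control (368). Total count scaling gave 325 higher and 470 lower. Same-numbered mice did not deviate together (correlations 0.066, −0.024 and 0.020), and a replicate block gave 704 calls, with 1 for NADPH supply and 1 for female-predominant genes. Of the 6 mice, 3 correlated best with their own number. CAR and PXR targets had 11 calls in DESeq2 and 2 without a filter, and male-predominant genes 4 without a filter. With a mouse left out, calls ranged from 1 to 5 for CAR and PXR targets, 1 to 3 for CAR partners, electron transfer and female-predominant genes, 4 to 9 for male-predominant genes, and 0 to 1 for other POR acceptors and haem synthesis. The cause was not tested. With the longest transcript as length, Nr1i3 was at 54.6 in L-RalyKO and 55.2 in control livers and Por at 352.6 and 234 CPM per kb. The nearest neighbours in control livers were then Cyp2b9, with a lowest value of 19.3, and Cyp2b10, with a highest value of 17.3. With both hexamers exact, 0 DR4 elements were found upstream.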
